A study of Mus musculus with 2 samples.

Results

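Ccl2, Ccl7, Ccl8, Ccl12 and Ccr2, the monocyte-attracting chemokines of the mouse and their main receptor, were read across the cell classes of cranial bone defects filled with 2 scaffolds. The 5 genes were taken by symbol, and each had 1 row among the 32285 gene rows of the deposited tables. The cells came from 2 libraries, Gel50_CS50 and Gel100, named after the scaffold. The mice of both groups were Balb/c females, 6 weeks old, in which a hole of 3.5 mm in the skull was fitted with scaffold that carried no cells and was taken out at week 1. Cells of 5 mice per scaffold were pooled, freed with enzymes, cleared of red blood cells, sorted for viability and run on a 10x Chromium 3' assay, so each group was 1 library of 1 pool and had no replicate. The sources used here do not spell out the scaffold names, so they are kept as labels. The pooled mice were not separated, and scaffold and library preparation cannot be told apart.

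Ccl2, Ccl7, Ccl8 and Ccl12 are small secreted proteins of the CC chemokine family. Ccl2, Ccl7 and Ccl12 act on the G-protein-coupled receptor Ccr2, through which monocytes leave the bone marrow and enter inflamed or injured tissue. Ccl7 also binds other CC receptors, and mouse Ccl8 has been described as a ligand of Ccr8. In bone repair, monocytes that arrive in this way give rise to macrophages and can give rise to osteoclasts.

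On mm10 with the GENCODE vM21 annotation, the 4 ligand genes lay in 1 stretch of 81229 bases on the plus strand of chromosome 11, each with 3 exons in its first listed transcript. Ccl2 was at chr11:82035571-82037453, Ccl7 at chr11:82045712-82047525, Ccl12 at chr11:82101845-82103400 and Ccl8 at chr11:82115185-82116799. Ccr2 was at chr9:124101950-124113557, also on the plus strand. The whole of Ccl2 lay inside Gm17268, a gene on the opposite strand that is counted in the same tables. The sources used here do not say whether counting used the strand, so whether reads of Ccl2 and Gm17268 were kept apart is not known here. The ligands shared no run above 23 bases with one another or with Ccl11.

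Promoter sequences of Ccl12 and Ccl8, neighbours 11784 bases apart, are given from 250 bases before to 50 bases after the start (RefSeq, GRCm38.p6, plus strand, 5′ to 3′). In macrophages and monocytes, the log2 ratio of Gel50_CS50 over Gel100 was -1.07 for Ccl12 and 0.20 for Ccl8. With both libraries weighted to the same share of each cell cluster, it was -0.11 for Ccl12 and -0.055 for Ccl8. The part of the promoters in these values was not tested. The windows are chr11:82101595-82101894 for Ccl12 and chr11:82114935-82115234 for Ccl8, and capitals mark the TATAAA motif.
Ccl12: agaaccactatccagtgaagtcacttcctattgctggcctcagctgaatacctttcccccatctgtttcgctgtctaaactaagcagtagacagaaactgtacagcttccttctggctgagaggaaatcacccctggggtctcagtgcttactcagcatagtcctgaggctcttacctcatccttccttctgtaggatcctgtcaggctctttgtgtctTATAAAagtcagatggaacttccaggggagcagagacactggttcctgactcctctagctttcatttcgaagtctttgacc
Ccl8: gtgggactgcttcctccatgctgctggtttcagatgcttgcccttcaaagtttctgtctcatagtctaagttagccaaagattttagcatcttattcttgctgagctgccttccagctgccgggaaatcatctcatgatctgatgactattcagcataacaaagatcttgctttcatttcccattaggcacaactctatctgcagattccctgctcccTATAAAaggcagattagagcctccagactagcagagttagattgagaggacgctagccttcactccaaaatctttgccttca
The pair had 193 identical bases of 300 in a global alignment, against 171 for Ccl8 with Ccr2 and 174 for Ccl12 with Ccr2. TATAAA began 31 bases before the start in Ccl12 and 32 bases before it in Ccl8, and 13.6% of 32851 mouse promoters of that length held it on either strand. GAGGAA, the core of the PU.1 motif, was found on the plus strand of Ccl12 and the minus strand of Ccl8, and in 28.3% of all promoters. The NF-kB motif (GGG, any 5 bases, CC, in 50.8% of promoters), the interferon response motif (GAAA, any 2 bases, GAAA, in 3.44%), TTCNNNGAA (STAT, in 8.30%) and TGANTCA (AP-1, in 7.81%) were in neither window on either strand. TTGNNNAA (C/EBP, in 36.7%) was in the Ccl8 window and not in that of Ccl12. These matches describe letters in a window and not binding sites.

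After filtering, 7206 Gel50_CS50 cells and 7601 Gel100 cells were kept, with a median of 16509.5 UMIs (unique molecules) per Gel50_CS50 cell and 12707 per Gel100 cell. The libraries shared 24 barcode sequences. Cells were clustered without the 5 genes and without the other chemokine and receptor genes, and clusters were named from fixed markers. There were 3614 Gel50_CS50 and 3719 Gel100 macrophages and monocytes, and 658 Gel50_CS50 and 256 Gel100 stromal cells (fibroblast-like or mesenchymal). All 12 stromal markers were found in at least 10% of the stromal cells of each library, and 21 of 23 macrophage and monocyte markers in Gel50_CS50 and 20 of 23 in Gel100 in their own class. Levels below are counts summed over the cells of a class and divided by all UMIs of those cells, per 1000000 UMIs (CPM). With 1 library per scaffold there is no test: 95% intervals (exact Poisson for levels, exact binomial for shares and for ratios) cover counting error only. Genes whose 2 levels averaged 20 CPM or more were counted as measured, and a gene was called when the whole interval of its ratio lay beyond 1.5-fold.

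The ligands and the receptor differed in their order of classes. Ccl2, Ccl7 and Ccl8 were at their highest in stromal cells or in macrophages and monocytes, Ccl12 in macrophages and monocytes, and Ccr2 in T and NK cells. Ccl2 stood at 391 CPM (384 to 397) in Gel50_CS50 stromal cells and 808 CPM (791 to 824) in Gel100 stromal cells. Macrophages and monocytes came next, with 337 CPM (333 to 341) in Gel50_CS50 and 709.5 CPM (703 to 716) in Gel100, so the intervals of the 2 classes did not overlap within either library. This order turned round when each cell was thinned to 3000 UMIs, with 337 CPM in Gel50_CS50 and 664 CPM in Gel100 stromal cells and 357 CPM in Gel50_CS50 and 731 CPM in Gel100 macrophages and monocytes. Pericytes or smooth muscle cells had 306 CPM in Gel50_CS50 and 127 CPM in Gel100, where only 28 such cells were found, and no ratio is given for them. No other named class exceeded 44.2 CPM in Gel50_CS50 or 43.5 CPM in Gel100.

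**Figure D1:**
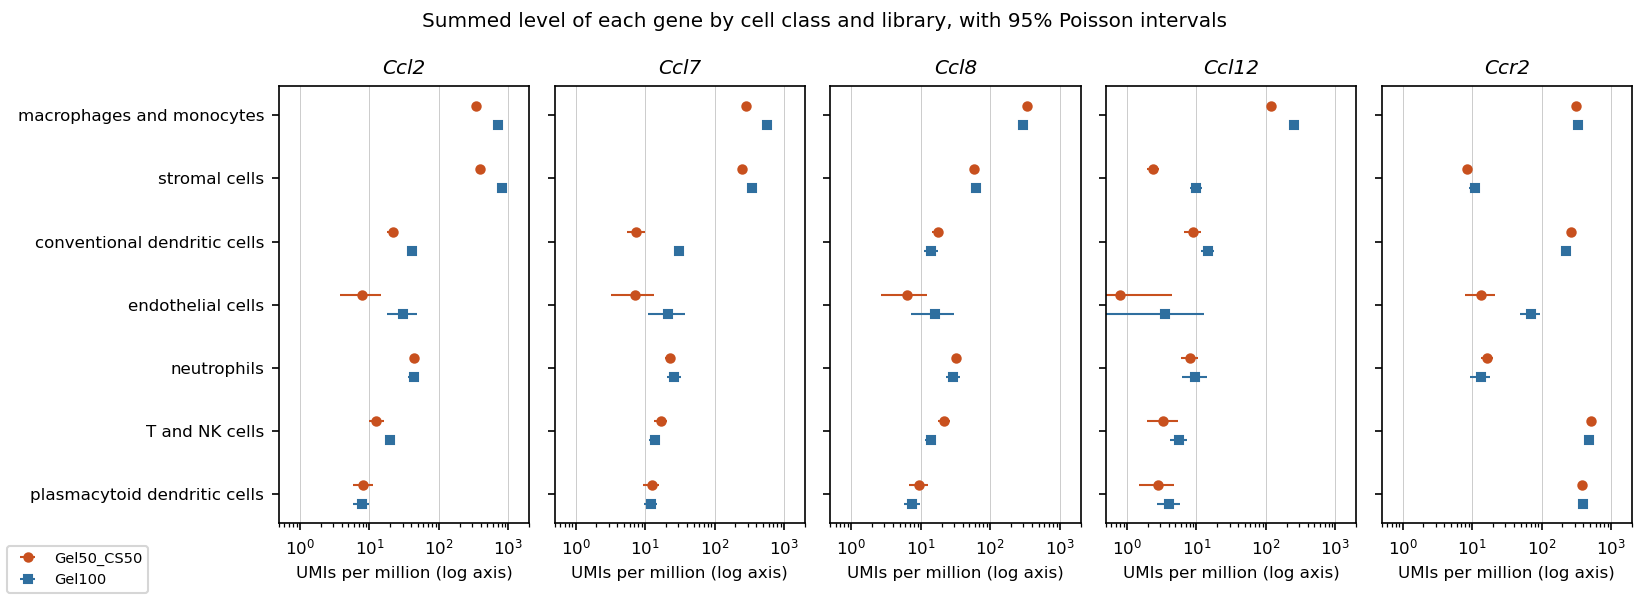
Summed level of each gene (x axis, CPM, log scale) in 7 cell classes (y axis) of the Gel50_CS50 library (circles) and the Gel100 library (squares), with 95% Poisson intervals, which are often narrower than the marks. Without thinning, Ccl2 peaks in stromal cells, Ccl7, Ccl8 and Ccl12 peak in macrophages and monocytes, and Ccr2 peaks in T and NK cells at 513 CPM in Gel50_CS50 and 485 CPM in Gel100.

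Ccl7 had 284 CPM (281 to 288) in Gel50_CS50 and 564 CPM (558 to 569.6) in Gel100 macrophages and monocytes, and 246 CPM (241 to 251) in Gel50_CS50 and 345 CPM (334 to 356) in Gel100 stromal cells. Without thinning, its order of classes was thus the reverse of that of Ccl2. In thinned cells, both ligands were higher in macrophages and monocytes than in stromal cells. Thinned Ccl7 levels in macrophages and monocytes were 282 CPM in Gel50_CS50 and 549 CPM in Gel100. In stromal cells they were 213 CPM in Gel50_CS50 and 311 CPM in Gel100. Ccl8 was more restricted: macrophages and monocytes had 342 CPM (338 to 346) in Gel50_CS50 and 298 CPM (294 to 303) in Gel100, and stromal cells 58.6 CPM in Gel50_CS50 and 63.0 CPM in Gel100. Ccl12, a ligand named in rodents, was the most restricted, with 119 CPM (116 to 121) in Gel50_CS50 and 249.8 CPM (246 to 254) in Gel100 macrophages and monocytes, against 2.39 CPM in Gel50_CS50 and 9.84 CPM in Gel100 stromal cells. In T and NK cells, none of the ligands was above 21.7 CPM in Gel50_CS50 or 19.7 CPM in Gel100.

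Ccl2 counts per cell were low in the remaining immune classes. Ccl2 averaged 0.208 UMIs per neutrophil, 0.134 per T or NK cell, 0.148 per plasmacytoid dendritic cell and 0.441 per conventional dendritic cell in Gel50_CS50. In Gel100 these means were 0.192, 0.189, 0.140 and 0.689 UMIs. With every cell thinned to 3000 UMIs, 34.2% of Gel50_CS50 and 53.7% of Gel100 macrophages and monocytes had a Ccl2 UMI (58.9% and 73.1% unthinned). In T and NK cells, which should lack Ccl2, the thinned shares were 2.37% in Gel50_CS50 and 5.27% in Gel100. Thinning left out 51 Gel50_CS50 and 328 Gel100 macrophages and monocytes, and 13 Gel50_CS50 and 96 Gel100 T and NK cells. Median depths before thinning were 18755 and 9740 UMIs for these classes in Gel50_CS50, and 16044 and 8804 UMIs in Gel100.

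Ccr2, the receptor, followed another order of classes. T and NK cells had 513 CPM (494 to 533) in Gel50_CS50 and 485 CPM (471 to 499.9) in Gel100, followed by plasmacytoid dendritic cells with 383 CPM (365 to 401) in Gel50_CS50 and 395 CPM (381 to 409) in Gel100. Macrophages and monocytes had 311 CPM (307 to 315) in Gel50_CS50 and 332 CPM (327 to 336) in Gel100, and conventional dendritic cells 267 CPM (254 to 280.4) in Gel50_CS50 and 227 CPM (216 to 239.96) in Gel100. That order was the same in both libraries, and no neighbouring pair in it had overlapping intervals. Neutrophils, which should lack the receptor, had 16.4 CPM in Gel50_CS50 and 13.3 CPM in Gel100. The thinned share of cells with a Ccr2 UMI was 61.9% in Gel50_CS50 and 62.4% in Gel100 for T and NK cells, and 1.79% in Gel50_CS50 and 2.86% in Gel100 for neutrophils.

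Within the lymphoid cells, Ccr2 levels stood apart by cluster. Cluster 22, led by Ctla4, Il2ra and Foxp3 (genes of regulatory T cells), had 707 CPM in Gel50_CS50 and 703 CPM in Gel100. Cluster 19, led by Cd163l1, Il23r and Trdc (genes of gamma-delta T cells), had 636 CPM in Gel50_CS50 and 574 CPM in Gel100, and the NK cells of cluster 8 had 529 CPM in Gel50_CS50 and 539 CPM in Gel100. Cluster 15, led by Themis, Lef1 and Cd3g (genes of conventional T cells), was lowest with 202 CPM in Gel50_CS50 and 191 CPM in Gel100. The interval of the library ratio included 0 on the log2 scale in each of these 4 clusters.

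The classes that held the ligand transcripts differed in share between the scaffolds, as did their shares of all UMIs. Stromal cells were 9.13% of the kept Gel50_CS50 cells and 3.37% of the kept Gel100 cells. They held 26.1% of the UMIs of all genes in Gel50_CS50 and 10.6% in Gel100, the base for their share of each gene. Of all Ccl2 UMIs they held 35.0% (34.5 to 35.4) in Gel50_CS50 and 16.1% (15.8 to 16.4) in Gel100. For Ccl7 the stromal share was 29.4% in Gel50_CS50 and 9.62% in Gel100. For Ccl8 it was 7.62% in Gel50_CS50 and 3.57% in Gel100. Macrophages and monocytes held 50.5% of the UMIs of all genes in Gel50_CS50 and 57.3% in Gel100. They held 58.3% of Ccl2 UMIs in Gel50_CS50 and 76.5% in Gel100, while 92.7% of Ccl12 UMIs in Gel50_CS50 and 94.8% in Gel100 were theirs. Of Ccr2 UMIs, macrophages and monocytes held 69.7% in Gel50_CS50 and 63.0% in Gel100, and T and NK cells 8.02% in Gel50_CS50 and 13.3% in Gel100. T and NK cells held 3.53% of the UMIs of all genes in Gel50_CS50 and 8.30% in Gel100. The shares also move with how many cells of each class the digestion and the sort let through. Over all kept cells, Ccl2 summed to 5836 UMIs per 1000 Gel50_CS50 cells and 7374 per 1000 Gel100 cells, and Ccl8 to 4017 per 1000 Gel50_CS50 cells and 2598 per 1000 Gel100 cells, at depths that differed as given above.

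**Figure D2:**
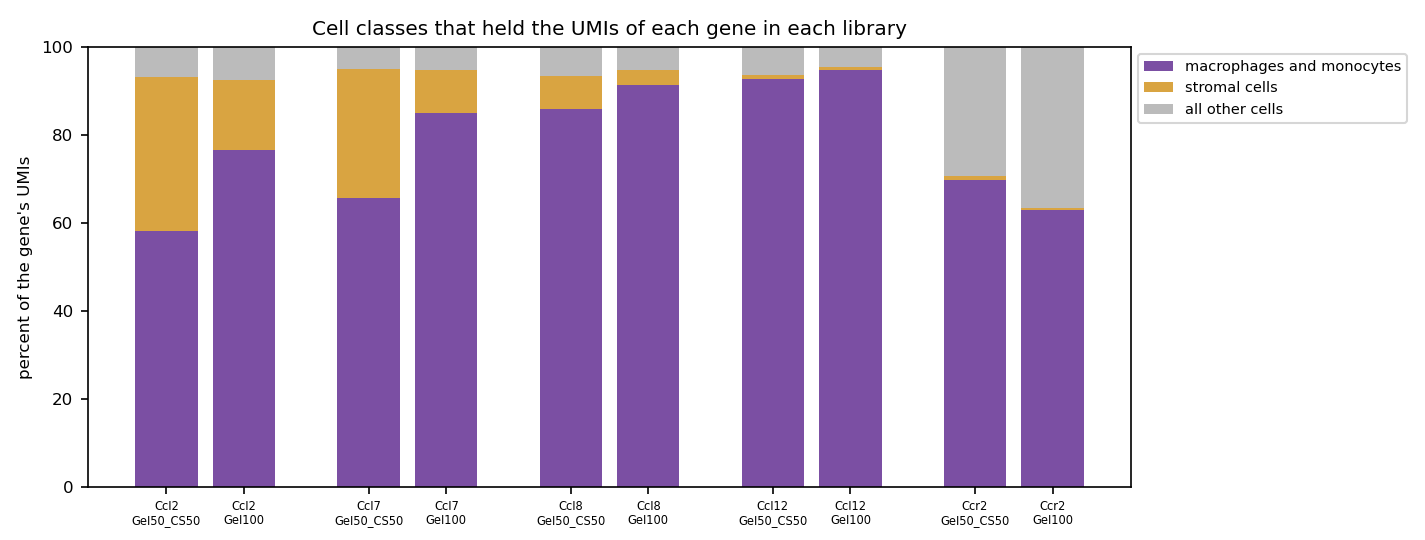
Percent of the UMIs of each gene (y axis) found in macrophages and monocytes, stromal cells or all other cells, for the Gel50_CS50 library (left bar of each pair) and the Gel100 library (right bar). The stromal part of Ccl2 is 35.0% in Gel50_CS50 and 16.1% in Gel100, against 26.1% and 10.6% of the UMIs of all genes.

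In macrophages and monocytes, 3 of the 4 ligands were lower in Gel50_CS50 than in Gel100, and the fourth ligand and the receptor were not called. None of the 3 was beyond 1.5-fold once both libraries were weighted to the same share of each cluster, with log2 ratios of -0.56 for Ccl2, -0.47 for Ccl7 and -0.11 for Ccl12. Ccl2 summed to 24501 UMIs in Gel50_CS50 and 42872 UMIs in Gel100, a log2 ratio of -1.07 (-1.10 to -1.05), or 2.10-fold lower in Gel50_CS50. Ccl7 had 20670 UMIs in Gel50_CS50 and 34055 in Gel100, a log2 ratio of -0.99 (-1.01 to -0.96). Ccl12 had 8622 UMIs in Gel50_CS50 and 15093 in Gel100, a log2 ratio of -1.07 (-1.11 to -1.04). All 5 genes were measured in this class, and 3 were called lower, against 3.99% of the 6097 measured genes called lower and 2.08% called higher. The 12 fibroblast markers summed to 199 CPM in Gel50_CS50 and 95.6 CPM in Gel100 macrophages and monocytes, with 10 higher in Gel50_CS50 and none at 0, and their part in these values was not tested.

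Ccl8 and Ccr2 stayed within 1.5-fold in the same cells. The log2 ratio of Ccl8 was 0.20 (0.17 to 0.23), with 24867 UMIs in Gel50_CS50 and 18019 in Gel100. That of Ccr2 was -0.09 (-0.12 to -0.07), with 22616 UMIs in Gel50_CS50 and 20050 in Gel100, while the median over measured genes was -0.01. Of all measured genes, 1.39% had a lower ratio than Ccl2 and 83.8% a lower ratio than Ccl8. Gm17268, on the strand opposite Ccl2, had 48.8 CPM in Gel50_CS50 and 73.0 CPM in Gel100.

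**Figure D3:**
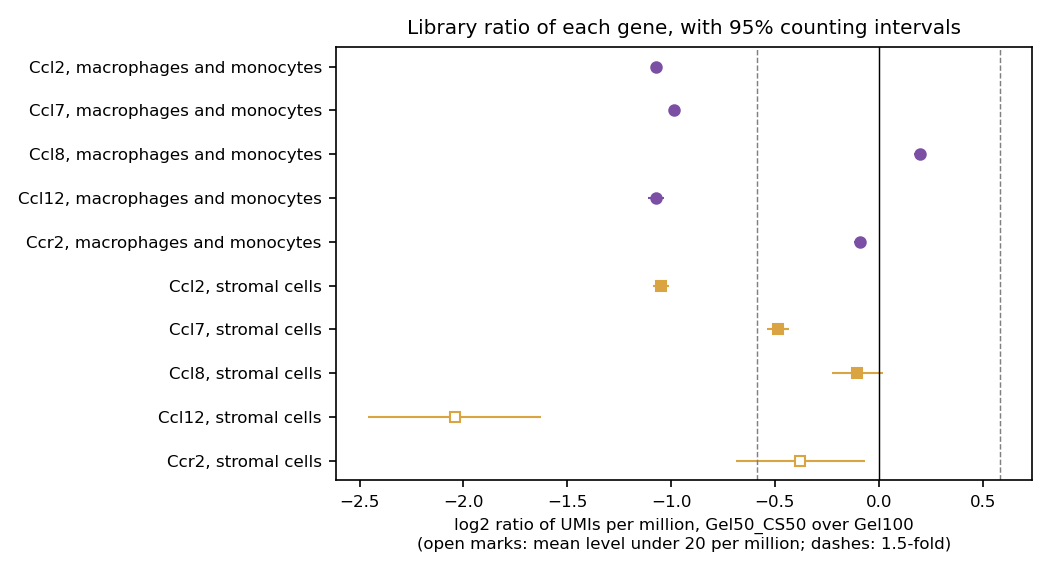
Log2 ratio of CPM, Gel50_CS50 over Gel100 (x axis), for each gene in macrophages and monocytes (circles) and stromal cells (squares), with 95% counting intervals, the solid line at 0 and dashes at 1.5-fold. Ccl2, Ccl7 and Ccl12 in macrophages and monocytes and Ccl2 in stromal cells lie left of the dashes, Ccl8 and Ccr2 between them, and open marks are genes under the level minimum.

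The share of cells with a ligand UMI went the same way as the levels. In thinned macrophages and monocytes, Ccl7 was found in 24.6% (23.2 to 26.1) of Gel50_CS50 cells and 40.6% (38.9 to 42.3) of Gel100 cells, and Ccl12 in 15.04% (13.9 to 16.3) of Gel50_CS50 cells and 28.6% (27.1 to 30.2) of Gel100 cells. Ccl8 was found in 15.3% (14.2 to 16.5) of Gel50_CS50 cells and 14.8% (13.6 to 16.04) of Gel100 cells, and Ccr2 in 39.6% (38.0 to 41.2) of Gel50_CS50 cells and 44.1% (42.4 to 45.8) of Gel100 cells. Ccl8 was the most unevenly spread: the 10% of cells richest in it held 93.7% of its UMIs in Gel50_CS50 and 93.0% in Gel100. For Ccr2 the richest 10% held 45.0% in Gel50_CS50 and 43.0% in Gel100, and for Ccl2 60.5% in Gel50_CS50 and 53.6% in Gel100.

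The macrophage and monocyte class consisted of 8 clusters, and different clusters made up most of it in each library. Cluster 0, led by Ifit1bl1, Ly6c2 and Slamf7, was 5.78% of the class in Gel50_CS50 and 39.3% in Gel100. Cluster 5, led by Arg1 and Cxcl3, was 21.1% in Gel50_CS50 and 2.12% in Gel100, and cluster 6, led by Mrc1, Selenop and Gas6, was 15.6% in Gel50_CS50 and 5.43% in Gel100. Cluster 3, led by Adgre4 and MHC class II genes, was 17.3% in Gel50_CS50 and 8.95% in Gel100. With 1 library per scaffold, a cluster mostly of 1 library may reflect that library.

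Each gene had its own pattern over these clusters. Ccl2 was highest in cluster 7, led by Cxcl10, Rsad2 and Chil3 and scored as monocytes, with 752 CPM in Gel50_CS50 and 1429.9 CPM in Gel100, and lowest in cluster 3 with 138 CPM in Gel50_CS50 and 169 CPM in Gel100. Ccl7 was lowest in cluster 3 too, with 70.5 CPM in Gel50_CS50 and 134 CPM in Gel100, and reached 562 CPM in Gel50_CS50 and 693 CPM in Gel100 in cluster 2, led by Cd5l, Ccl6 and Cd36. Ccl12 had 489 CPM in Gel50_CS50 and 378 CPM in Gel100 in cluster 0, and 26.8 CPM in Gel50_CS50 and 78.9 CPM in Gel100 in cluster 5. Cluster 0 held 21.9% of the Ccl12 UMIs of the class in Gel50_CS50 and 59.03% in Gel100.

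Ccl8 had its highest level in cluster 6, the one led by Mrc1 (the mannose receptor), Selenop and Gas6. There it had 1541 CPM in Gel50_CS50 and 1649 CPM in Gel100, a log2 ratio of -0.10 (-0.15 to -0.05), and the cluster held 70.2% of the class's Ccl8 UMIs in Gel50_CS50 and 24.9% in Gel100. The larger cluster 0 held 6.23% of them in Gel50_CS50 and 42.7% in Gel100. In cluster 7, where Ccl2 was highest, Ccl8 had 15.04 CPM in Gel50_CS50 and 26.1 CPM in Gel100. Ccr2 was highest in cluster 7, with 1024 CPM in Gel50_CS50 and 776 CPM in Gel100, and second in cluster 3, with 527 CPM in Gel50_CS50 and 539 CPM in Gel100. It was lowest in cluster 5 in Gel50_CS50 with 88.6 CPM (202 CPM in Gel100) and in cluster 11, led by Gpnmb, Spp1 and Fabp5, in Gel100 with 109 CPM (96.3 CPM in Gel50_CS50).

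**Figure D4:**
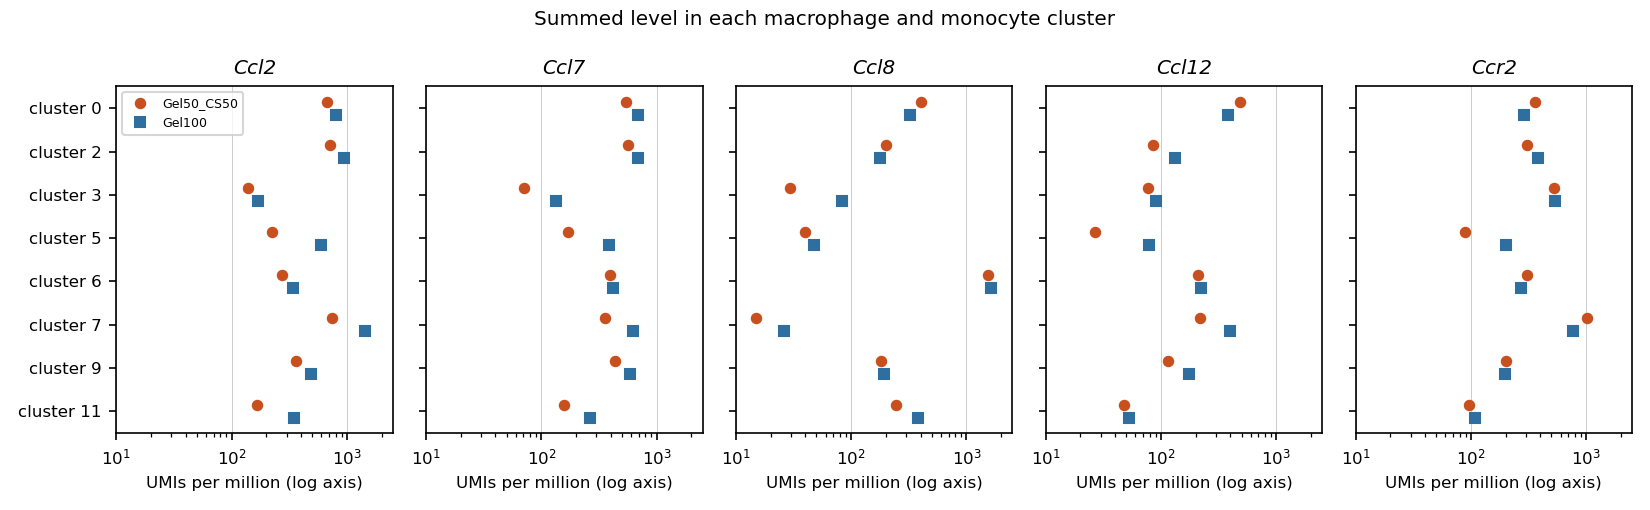
Summed level of each gene (x axis, CPM, log scale) in the 8 macrophage and monocyte clusters (y axis) of the Gel50_CS50 library (circles) and the Gel100 library (squares). Ccl8 peaks in cluster 6 at 1541 CPM in Gel50_CS50 and 1649 CPM in Gel100, and Ccl2 and Ccr2 peak in cluster 7.

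Inside the clusters, Ccl2 and Ccl7 levels were below those of Gel100 in all 8 Gel50_CS50 clusters, though not all were called, and Ccl12, Ccl8 and Ccr2 ratios had both signs. In clusters 0, 2, 3, 5, 6, 7, 9 and 11, the share of measured genes called lower was 0.536%, 2.09%, 0.397%, 1.83%, 0.437%, 2.14%, 1.6% and 1.34% in that order, and the share called higher was 1.01%, 0.813%, 0.645%, 0.915%, 0.275%, 1.63%, 1.07% and 0.426%. The log2 ratio of Ccl2 ran between -1.41 in cluster 5 and -0.26 in cluster 0, and it was called lower in 3 clusters (5, 7 and 11). Ccl7 ran between -1.18 in cluster 5 and -0.08 in cluster 6 and was called lower in the same 3 clusters and in cluster 3. Ccl12 was called lower in clusters 5 and 7, with log2 ratios of -1.56 and -0.88, and was 0.37 (0.30 to 0.44) in cluster 0, higher in Gel50_CS50 but not called. The lowest ratios of Ccl2, Ccl7 and Ccl12 were thus in cluster 5, where they rest on 761 Gel50_CS50 cells and only 79 Gel100 cells.

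Ccl8 was called lower in cluster 3, with 29.2 CPM in Gel50_CS50 and 84.0 CPM in Gel100 and a log2 ratio of -1.53 (-1.74 to -1.32). Ccr2 was called lower in cluster 5, on only 79 Gel100 cells, with a log2 ratio of -1.19 (-1.37 to -1.004). It was 0.40 (0.34 to 0.46) in cluster 7, higher in Gel50_CS50 but not called. With both libraries weighted to the same share of each cluster, the class ratio was -0.055 for Ccl8, of the other sign, and 0.079 for Ccr2.

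Over the 16 cluster and library units of the class, levels on the log2(CPM + 1) scale went together for some genes. Pearson's r was 0.87 between Ccl2 and Ccl7, 0.63 between Ccl2 and Ccl12, -0.11 between Ccl2 and Ccl8, and 0.62 between Ccl12 and Ccr2. Against the mean of 14 interferon-stimulated genes, r was 0.80 for Ccl12, 0.71 for Ccl2 and 0.49 for Ccl7. Against the mean of 9 resident-type macrophage genes, r was 0.87 for Ccl8 and -0.32 for Ccl2. Ccr2 had r of 0.77 with the mean of 16 immediate-early and heat-shock genes, 0.69 with that of 12 NF-kB response genes, 0.66 with that of 8 circulating monocyte genes and 0.64 with that of the interferon-stimulated genes. For Ccl8 these were -0.52, -0.81, -0.74 and -0.32. The units share 2 libraries and their depths, and most of the listed genes took part in the clustering, so these values are descriptions.

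Within single macrophages and monocytes thinned to 3000 UMIs, Ccl7 was more frequent in cells with Ccl2 than in cells without it. Ccl7 was found in 48.9% (46.0 to 51.7) of Gel50_CS50 cells with a Ccl2 UMI and 12.1% (10.8 to 13.5) of Gel50_CS50 cells without one. In Gel100 the shares were 61.0% (58.7 to 63.2) with and 17.0% (15.2 to 19.0) without. Ccl12 was found in 26.7% of Gel50_CS50 cells with Ccl2 and 8.998% without, and in 38.9% of Gel100 cells with Ccl2 and 16.7% without. Ccr2 was found less often beside Ccl8, in 34.1% (30.1 to 38.2) of Gel50_CS50 cells with Ccl8 against 40.6% (38.8 to 42.3) without, and in 33.1% (29.0 to 37.4) of Gel100 cells with Ccl8 against 46.0% (44.2 to 47.9) without. It was found more often beside Ccl12, in 53.2% of Gel50_CS50 cells with Ccl12 and 37.2% without, and in 52.2% of Gel100 cells with Ccl12 and 40.9% without.

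Counted together, none of the 4 ligands was found in 47.9% (46.3 to 49.6) of thinned Gel50_CS50 macrophages and monocytes and in 29.8% (28.3 to 31.4) of Gel100 ones. Several ligands in 1 cell were less frequent: 6.93% of Gel50_CS50 cells and 15.9% of Gel100 cells had 3, and 1.82% of Gel50_CS50 cells and 3.77% of Gel100 cells had all 4. Of the cells with all 4 ligands (65 in Gel50_CS50 and 128 in Gel100), 49.2% in Gel50_CS50 and 44.5% in Gel100 also had a Ccr2 UMI. Over all thinned cells of the class, 39.6% in Gel50_CS50 and 44.1% in Gel100 had one. Ligands and receptor were thus found in some of the same cells, in Gel100 at about the share of the class. The Gel50_CS50 share rests on 65 cells and has no interval here, so it is not read as above that of the class.

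**Figure D5:**
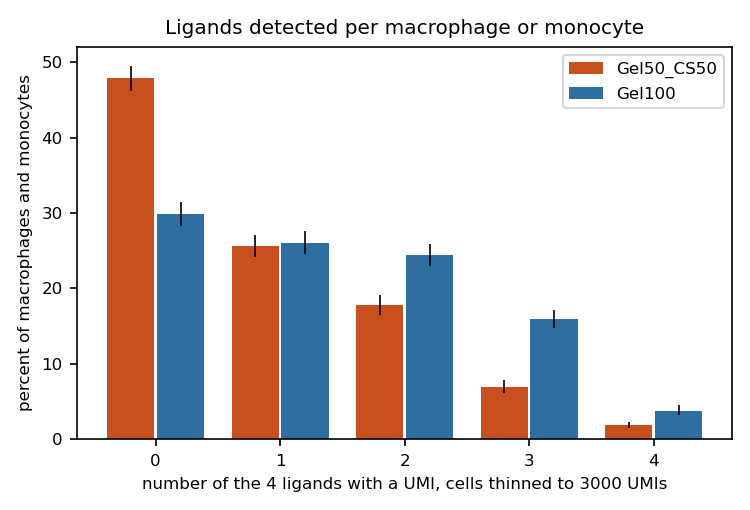
Percent of macrophages and monocytes (y axis, with 95% binomial intervals) by the number of the 4 ligands with a UMI after thinning each cell to 3000 UMIs (x axis), for Gel50_CS50 (left bars) and Gel100 (right bars). Cells with no ligand are 47.9% of Gel50_CS50 and 29.8% of Gel100.

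In stromal cells, Ccl2 was lower in Gel50_CS50, with 14709 UMIs against 9027 in Gel100 and a log2 ratio of -1.05 (-1.085 to -1.01). It was the 1 gene called among the 3 measured there, against 1.87% of 7007 measured genes called lower and 0.885% called higher. Ccl7 had a log2 ratio of -0.49 (-0.54 to -0.43) and Ccl8 one of -0.10 (-0.23 to 0.02), neither called. When all cells counted alike, the Ccl8 ratio became -0.87, and after thinning to 3000 UMIs it became 0.18. Ccl12 and Ccr2 were under the level minimum. The 12 macrophage markers summed to 565 CPM in Gel50_CS50 and 525 CPM in Gel100 stromal cells, against 16364 CPM in Gel50_CS50 and 14209 CPM in Gel100 macrophages and monocytes, with none of them at 0. The 11 monocyte markers summed to 3996 CPM in Gel50_CS50 and 4129 CPM in Gel100 stromal cells, with 7 higher in Gel50_CS50 and 1 at 0 in Gel100. In macrophages and monocytes they summed to 19860 CPM in Gel50_CS50 and 14193 CPM in Gel100. Of these markers, Vcan was higher in stromal cells (633 CPM in Gel50_CS50, 588 CPM in Gel100) than in macrophages and monocytes (253 CPM and 124 CPM). Ly6c2 was lower in stromal cells (14.1 CPM and 55.9 CPM, against 508 CPM and 1448 CPM). The part of these markers in the stromal ligand levels was not tested.

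There were 3 stromal clusters. Of those compared, 1 showed the lower Ccl2 of the class, and the other went the other way. In cluster 13, led by Tnn, Tnc and Postn (matrix genes of wound fibroblasts), Ccl2 had 533 CPM in Gel50_CS50 and 1112 CPM in Gel100, a log2 ratio of -1.06 called lower against 2.51% of measured genes (1.96% called higher), and this cluster held 82.7% of stromal Ccl2 UMIs in Gel50_CS50 and 94.6% in Gel100. In cluster 16, led by Mgp, Eln and Col11a1, Ccl2 had 165 CPM in Gel50_CS50 and 53.6 CPM in Gel100, a log2 ratio of 1.62 (1.37 to 1.88), and Ccl7 had 109 CPM in Gel50_CS50 and 39.3 CPM in Gel100, a log2 ratio of 1.47 (1.18 to 1.78). Both were called higher, against 1.18% of 7102 measured genes in cluster 16 called higher and 2.93% called lower. These values rest on 215 Gel50_CS50 and 66 Gel100 cells and on few of them: the richest 10% of cells held 94.4% of the Ccl2 UMIs of cluster 16 in Gel50_CS50 and 89.6% in Gel100, and 1 Gel50_CS50 cell had 685 of the 1900 UMIs. Cluster 25, led by Pi16 and Clec3b, had 25 Gel100 cells and was not compared.

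Ccl2 and Ccl7 were also found together in stromal cells. Ccl7 was found in 57.6% (50.7 to 64.3) of thinned Gel50_CS50 stromal cells with Ccl2 and 18.8% (15.2 to 22.7) without, and in 70.4% (60.3 to 79.2) of Gel100 stromal cells with Ccl2 and 20.8% (14.1 to 29.0) without. Ccl11, the eosinophil attractant encoded between Ccl7 and Ccl12, was a stromal gene in these data, with 73.0 CPM in Gel50_CS50 and 105 CPM in Gel100 stromal cells and 0.289 CPM in Gel50_CS50 and 0.182 CPM in Gel100 macrophages and monocytes. Ccl12, the next gene along the chromosome, showed the reverse distribution.

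Among the other classes, Ccl2 was called lower in conventional dendritic cells, with 21.7 CPM (130 UMIs) in Gel50_CS50 and 41.2 CPM (244 UMIs) in Gel100 and a log2 ratio of -0.92 (-1.24 to -0.61), where 1.68% of measured genes were called lower and 1.37% higher. The thinned share of these cells with a Ccl2 UMI was 5.52% (3.19 to 8.81) in Gel50_CS50 and 4.79% (2.65 to 7.91) in Gel100 (22.7% and 20.6% unthinned), not lower in Gel50_CS50, and the Gel100 share was no higher than the 5.27% of Gel100 T and NK cells, so the call is not read as a difference between cells. The richest 10% of these cells held 71.5% of the Ccl2 UMIs in Gel50_CS50 and 84.8% in Gel100. Ccl7 had 45 UMIs in Gel50_CS50 and 185 in Gel100 conventional dendritic cells, a log2 ratio of -2.05 (-2.56 to -1.58). Its mean level of 19.4 CPM was under the minimum, and its thinned shares were 3.79% in Gel50_CS50 and 3.77% in Gel100. By dendritic cluster, the log2 ratio of Ccl2 was -1.08 in cluster 14 and -0.56 in cluster 20. That of Ccl7 was -1.80 in cluster 14 and -2.68 in cluster 20. Ccr2 was called lower in endothelial cells, on 17 UMIs in 56 Gel50_CS50 cells and 39 UMIs in 64 Gel100 cells, where 3.81% of measured genes were called lower and 1.78% higher. The median depth of those cells was 18619.5 UMIs in Gel50_CS50 and 2015.5 UMIs in Gel100, and the part of depth in that result was not tested. In neutrophils, T and NK cells and plasmacytoid dendritic cells, none of the 5 measured class values was called. In cluster 19 of the T and NK cells, Ccl7 had 46.3 CPM in 90 Gel50_CS50 cells and 14.7 CPM in 101 Gel100 cells. Its log2 ratio there was 1.65 (0.76 to 2.64), called higher, and the share of all genes called was not computed for that cluster. In the whole class, 1 Gel50_CS50 cell had 36 of the 86 Ccl7 UMIs. The 3 neutrophil ratios depended on doublet removal: with doublets kept, the log2 ratio was -0.82 for Ccl2 (0.025 without them), -1.37 for Ccl7 (-0.17) and -0.85 for Ccl8 (0.14). The shares of genes called lower and higher were 5.73% and 3.66% in neutrophils, 0.961% and 0.945% in T and NK cells, and 0.405% and 0.777% in plasmacytoid dendritic cells.

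Genes whose levels were most like those of each member were taken over 15 class and library units with at least 50 cells, among 7305 genes, by Pearson's r of log2(CPM + 1). For Ccl2 these were Igf2bp2 (0.98), Gm17268 (0.97), Ccl7 (0.96), Dennd2a (0.93) and S1pr2 (0.93), and for Ccl7 they were Ccl2 (0.96), Igf2bp2 (0.95), Gm17268 (0.95), Lrp1 (0.90) and Dennd2a (0.90). For Ccl8 they were Cxcl13 (0.90), Acp5 (0.89), Arap1, Pgam1 and Frrs1 (0.88 each). For Ccl12 they were Cd300e (0.97), Folr2 (0.96), Apobec1 (0.95), Siglec1 (0.95) and Gnpda1 (0.94). For Ccr2 they included AI662270, Madd and Lat2 (0.96 each) and Il7r (0.95). Between members, r was 0.85 for Ccl8 with Ccl12 and -0.34 for Ccl2 with Ccr2. The units come from 2 libraries, and whether reads of Gm17268 and Ccl2 were kept apart is not known, as given above.

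Other receptors of these ligands had levels of their own. Ccr1, which binds several CC chemokines, had 74.1 CPM in Gel50_CS50 and 56.4 CPM in Gel100 macrophages and monocytes and was not called. It was highest in neutrophils, with 623 CPM in Gel50_CS50 and 707 CPM in Gel100. Ackr1, a decoy receptor of venular endothelium, had 41.8 CPM in Gel50_CS50 and 64.2 CPM in Gel100 endothelial cells. Ccr8 had 8.47 CPM in Gel50_CS50 and 4.57 CPM in Gel100 T and NK cells, and at most 1 UMI in macrophages and monocytes or stromal cells of either library.

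Of the other CC chemokines of the chromosome 11 cluster, 5 were measured in macrophages and monocytes, and 1 was called lower. That was Ccl5, an attractant of T cells and monocytes, with 459 CPM in Gel50_CS50 and 1463 CPM in Gel100 and a log2 ratio of -1.67 (-1.69 to -1.66). Ccl3 (log2 ratio -0.0046), Ccl4 (-0.29), Ccl6 (0.04) and Ccl9 (-0.28) were not called. Of the 8 CC chemokines encoded elsewhere, 1 was measured, Ccl24, an eosinophil attractant, and it was called higher with 48.9 CPM in Gel50_CS50 and 22.6 CPM in Gel100. Lower values were thus not shared by all CC chemokines of the locus.

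Gene groups related to the regulation and the cells of these chemokines differed in the same comparison. All 14 measured interferon-stimulated genes were called lower in Gel50_CS50 macrophages and monocytes, with a median log2 ratio of -1.04, and the largest ratios were those of Cmpk2 (-1.56), Ifit2 (-1.52), Rsad2 (-1.35) and Isg15 (-1.20). Of 12 NF-kB response genes, which include inhibitors and cytokines induced by that pathway, 2 were called higher and none lower: Cxcl1 had 436 CPM in Gel50_CS50 and 228 CPM in Gel100, and Cxcl2 3429 CPM in Gel50_CS50 and 2203 CPM in Gel100. Of 16 immediate-early and heat-shock genes, which respond to cell dissociation, none was called in either direction, with a median log2 ratio of 0.16.

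The circulating monocyte genes were divided, with 5 of 8 measured called higher and 3 called lower. F13a1 (log2 ratio 1.60) and Hp (1.33) were higher, and Ly6c2 (-1.51) and Ms4a4c (-1.05) were lower. Of 9 measured resident-type macrophage genes, 3 were called higher, namely Pf4 (1.34), Gas6 (1.11) and Mrc1 (1.06), and none lower. Among genes of monocyte recruitment and survival, Csf1r, the receptor of the macrophage growth factor Csf1, had 437 CPM in Gel50_CS50 and 379 CPM in Gel100, and Cx3cr1, the fractalkine receptor, had 102 CPM in Gel50_CS50 and 79.8 CPM in Gel100, neither called. In stromal cells, 5 of 13 measured interferon-stimulated genes were called lower, led by Cxcl10 (-1.48), and 1 of 12 NF-kB response genes, Ptgs2 (-0.78).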

How the data were processed

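The deposited count matrices hold UMI counts per gene and cell that the authors made with Cell Ranger (version 6.0.2 per the file headers) on mm10, per the submitters' processing notes; the annotation release and strand setting are not given in the sources used here. Of the table's identifiers, 99.6% were in GENCODE vM21. Cells with under 200 genes, under 500 UMIs or over 20% mitochondrial counts (117 in Gel50_CS50, 65 in Gel100) and Scrublet doublets (192 in Gel50_CS50, 179 in Gel100) were removed. The rest was clustered jointly with scanpy 1.11.5 (3000 variable genes, 30 components, 15 neighbours, Leiden resolution 1), leaving out the 5 genes and the chemokine and receptor lists. Clusters whose markers were mixed or whose depth was low stayed unnamed (397 Gel50_CS50 and 1239 Gel100 cells) and classes needed 50 cells per library for a ratio. Depth was 150311308 UMIs in Gel50_CS50 and 108847835 in Gel100. Ratio intervals and thinning were tested on simulated data. Named genes were the 5 members, up to 4 called genes per list with the largest ratios, and the 5 genes most like each member; other named genes were chosen after their values were seen. The members, lists and tests were chosen with earlier results of these data known. The alternatives concerned scaling, cell weights, depth, doublets, shared barcodes, clustering and class assignment. Some genes that these rules would name are not reported here.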

Additional observations from a re-analysis of the deposited data

Results flagged for a closer look

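Ccl2 went opposite ways in 2 stromal clusters: its log2 ratio of Gel50_CS50 over Gel100 was 1.62 in cluster 16, led by Mgp and Eln, and -1.06 in cluster 13, led by Tnn and Postn. It stood out because each was called in its own direction; the difference between the clusters was not tested, since each scaffold had 1 library. With the cell richest in Ccl2 left out of each library, a choice made after seeing the data, the ratios were 1.61 (1.29 to 1.95) in cluster 16 and -1.02 (-1.06 to -0.97) in cluster 13. For Ccl8 in cluster 16, 1 Gel50_CS50 cell had 225 of 302 UMIs, and the log2 ratio without the richest cells was 0.26 (-0.57 to 1.20), against 2.05 with them.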

How the results depend on the processing

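No paired analysis was possible because each scaffold had 1 library. In macrophages and monocytes, 13 alternatives kept the sign of the Ccl2, Ccl7 and Ccl12 ratios, and 12 of the 13 kept each beyond 1.5-fold, all but equal cluster weights. Ccl2 moved out of its counting interval to -1.02 with cells weighted equally, -1.03 thinned, -0.99 at Leiden resolution 2.0, -1.12 with libraries clustered alone and -0.56 with equal cluster weights. For Ccl7 these were -0.89, -0.96, -0.88, -0.86 and -0.47, with -0.93 under the per-cell marker gate, and for Ccl12 -0.98, -0.97, -0.83, -1.13 and -0.11, with -0.92 under the gate. Ccl8 moved to 0.26, 0.32, 0.43, 0.81 and -0.055, with 0.23 at resolution 0.5 and 0.26 under the gate, so it was beyond 1.5-fold only where libraries were clustered alone. Ccr2 moved to 0.013, -0.011, 0.13, -0.42 and 0.079, with -0.030 under the gate. In stromal cells, Ccl2 moved to -1.32 with cells weighted equally, -0.98 thinned, -0.998 with doublets kept, -0.93 without shared barcodes, and, chosen after seeing the data, -0.88 with equal cluster weights and -0.99 without its richest cells. Stromal Ccl7 moved to -0.61, -0.55 and, with equal cluster weights, -0.34. Under the gate, 7.15% of Gel50_CS50 and 11.7% of Gel100 cells lay near the cut. Without a level minimum, 4.76% of genes were called in macrophages and monocytes (6.07% with it) and 3.84% in stromal cells (2.75% with it). The stromal and macrophage order of Ccl2 levels turned round with thinned cells, as given beside it. The conventional dendritic cell Ccl2 ratio reached -1.53 with 50 principal components. The endothelial Ccr2 ratio was -4.45 with cells weighted equally and -1.15 under the gate. It had no value thinned, among cells with at least 3000 UMIs or with libraries clustered alone. Depth limits the ligands outside macrophages and stromal cells, where most rest on few UMIs.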

Other observations

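Cells left without a class also held these genes. Cluster 17, led by Mmp12, Dcstamp and Retnla (genes of alternatively activated and fusing macrophages), had 106 Gel50_CS50 and 119 Gel100 cells. Its Ccl2 level was 234 CPM in Gel50_CS50 and 695 CPM in Gel100, its Ccl12 level 3.68 CPM (14 UMIs) in Gel50_CS50 and 51.4 CPM (174 UMIs) in Gel100, and its Ccr2 level 561 CPM in Gel50_CS50 and 498 CPM in Gel100. Cluster 21, which mixed osteoclast, mast cell and neutrophil precursor genes, had Ccl8 at 304 CPM in 99 Gel50_CS50 cells and 191 CPM in 63 Gel100 cells.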
